A study of Rattus norvegicus with 28 samples.

Results

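Exendin-4 (Ex-4) was compared directly with forskolin (FSK) after 8 h in INS-1 cells that carry the S983A substitution in Med14. INS-1 cells derive from a rat insulinoma and serve as a model of the pancreatic beta cell. The comparison rests on 4 of the 28 RNA-seq libraries of the series, chosen by genotype, agent and time in their titles, with 2 libraries for each agent. All 4 came from Med14 S983A knock-in cells, made by CRISPR homology-directed repair and sorting of single cells, so the untreated controls (CON) of this genotype carry the substitution and its clonal background too. Ex-4 was given at 10 nM and FSK at 10 µM, and cells were placed in serum-free medium beforehand. The study made independent knock-in lines, and the labels do not say which line gave which library or whether the 2 replicates were separate cultures. The p-values measure the spread between replicate libraries, pooled over all 14 groups of the series, and that spread may be technical. Apart from their part in it, the other groups are used only to place the comparison. They are WT cells at 8 h, S983A cells at 1 and 16 h, and 2 S983A CON libraries with no time in their labels.

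Ex-4 is a peptide agonist of the GLP-1 receptor, which couples through Gs to adenylyl cyclase, whereas FSK binds and activates adenylyl cyclase itself and needs no receptor. Both raise cAMP, which activates protein kinase A (PKA), and PKA phosphorylates CREB at promoters that hold a cAMP response element (CRE). CREB target genes include their own brakes, such as cAMP phosphodiesterases, salt-inducible kinase 1 and the repressor ICER made from Crem. Med14 is a core subunit of Mediator, the complex that bridges transcription factors and RNA polymerase II, and Ser983 lies in a PKA consensus site, where alanine cannot be phosphorylated. The comparison asks how far the receptor agonist and the direct cyclase activator give the same late response when this site is absent. The doses were not matched on cAMP, which these files do not measure, so agent and strength of stimulus cannot be told apart.

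The 4 libraries held 50926052 to 92635979 fragments. FSK replicate 2 stood apart with the most, and the other 3 held at most 57231981. Without it, 3002 genes were higher with Ex-4 and 730 with FSK. Between replicates, Pearson's r of log2 values across genes was 0.999 for either agent. The 10 genes with the highest TPM took 10.3% to 10.4% of TPM with Ex-4 and 11.3% to 11.6% with FSK, and the median tested gene had 27.3 to 27.6 TPM with Ex-4 and 21.7 to 22.4 TPM with FSK. ERCC spike-in RNA, dosed per mass of total RNA and not per cell, made up 0.770% and 0.832% of fragments with Ex-4 and 0.807% and 0.909% with FSK, so the groups overlapped. Of the 8 beta cell markers in the table, 7 reached 1 TPM with either agent, and they summed to 78540 to 78900 TPM with Ex-4 and 80810 to 83730 TPM with FSK. Of 8 markers of alpha, delta, PP and epsilon cells only Gcg reached 1 TPM, and Sst, Irx2 and Ghrl were at 0 in all 4 libraries. Markers of acinar and ductal cells and of fibroblasts, endothelium and leukocytes summed to at most 2.12 and 0.644 TPM in any of them. Med14 itself had 25.5 and 25.4 TPM with Ex-4 and 30 and 27.3 TPM with FSK (log2 difference −0.16, SE 0.07, adjusted p 0.0283), with 19.6 and 20.3 TPM in S983A CON and 21.5 and 20.3 TPM in WT CON. Its amount does not show a single changed residue.

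Of 10275 genes tested, 3057 (29.8%) were higher with Ex-4 and 690 (6.72%) were higher with FSK. Calls needed a Benjamini-Hochberg adjusted p under 0.05 together with more than a 1.5-fold difference on the log2(TPM + 1) scale, and differences are given as Ex-4 minus FSK, so that a negative value is higher with FSK. The median difference over all genes was 0.25, and TPM are shares of a library, so this balance depends on the scale. With each library centred on its median, 1684 genes (16.4%) were higher with Ex-4 and 1588 (15.5%) were higher with FSK. On ERCC scaling the counts were 3615 (35.2%) and 510 (4.96%), and edgeR's quasi-likelihood test on the fragments behind the TPM gave 2327 and 1463. Genes higher with FSK were more frequent among abundant transcripts. Of the 2569 genes with the highest mean over the 4 libraries 10.4% were higher with FSK and 13.5% with Ex-4, and of the 2569 with the lowest the shares were 5.61% and 42.6%. Transcript length showed no such gradient, with 28.2% to 31.8% higher with Ex-4 in 4 classes of length.

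Against the same 2 CON libraries, Ex-4 left 330 genes higher (3.21%) and 317 lower (3.09%) at 8 h, with a median of −0.03. FSK left 1188 genes higher (11.6%) and 3550 lower (34.5%), with a median of −0.28. Both comparisons with CON were counted on TPM alone, without centring or ERCC scaling. TPM are shares of a library, so the balance of higher and lower genes depends on the scale. These 2 comparisons share their controls, so they are given side by side and not as separate evidence. Genes that the agents moved in opposite directions from CON were few. Among 7440 genes averaging 10 TPM or more, 3 were called higher with one agent and lower with the other. Ypel4 and Misp3 were lower than CON with Ex-4 and higher with FSK, and Misp3 had 13 and 13.8 TPM in CON, 8.31 and 8.22 with Ex-4 and 20.4 and 21.8 with FSK. Ypel4 had 12.8 and 11.5 TPM in CON, 7.77 and 7.78 with Ex-4 and 26 and 25 with FSK. Plppr5, a phospholipid phosphatase-related membrane protein of neurons, went the other way, with 11 and 10.3 TPM in CON, 18.7 and 18.9 with Ex-4 and 4.81 and 5.54 with FSK.

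**Figure D1:**
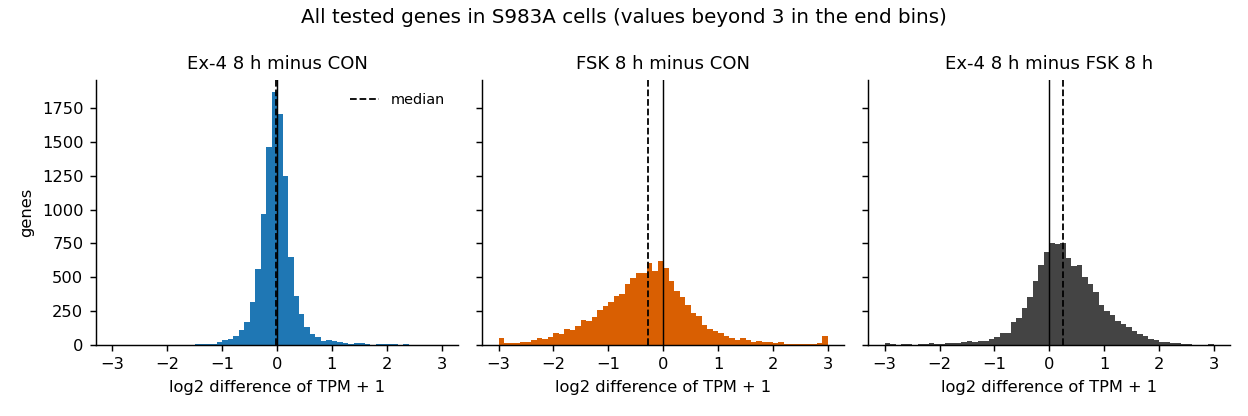
Histograms of the log2 difference of TPM + 1 for the 10275 tested genes of S983A cells, for Ex-4 minus CON, FSK minus CON and Ex-4 minus FSK at 8 h. Dashed lines mark the medians of −0.03, −0.28 and 0.25, and the FSK distribution is wider than that of Ex-4 and leans to lower values.

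Among genes averaging at least 10 TPM over the 4 libraries, the 12 with the largest difference toward FSK were mostly low in CON, higher with Ex-4 and much higher with FSK. Follistatin (Fst; NM_012561, rn6 chromosome 2, 46537589 to 46544452), a secreted protein that binds activin, had 3.54 and 3.72 TPM in the Ex-4 libraries and 131.8 and 131.9 TPM in the FSK libraries, against 1.17 and 0.956 TPM in CON. The FSK mean was 36.3 times the Ex-4 mean (log2 difference −4.84, SE 0.09, adjusted p 6.69e-24). Ccnd1 (NM_171992, rn6 chromosome 1, 218090750 to 218100272), the G1 cyclin D1, had 1.15 and 0.916 TPM with Ex-4, 54.3 and 52 TPM with FSK and 0.071 and 0.086 TPM in CON (log2 difference −4.74). Both genes were thus below 4 TPM in CON and with Ex-4. Tac1, the precursor of substance P, was already expressed in CON at 8.52 and 7.75 TPM, and had 25.5 and 27 TPM with Ex-4 and 299.7 TPM in both FSK libraries (−3.46). Epha2, a receptor tyrosine kinase for ephrins, had 4.13 and 4.9 TPM with Ex-4 and 56.4 and 55.4 TPM with FSK (−3.37). Plk2, a polo-like kinase induced by stimuli in neurons, had 4.08 and 5.08 TPM with Ex-4 and 44.1 and 44.8 TPM with FSK (−3.03). The rest of the 12 leading genes were Actn2, Vgf, Fosl2, Smim3, Sema3a, Maff and Hmox1, with differences down to −2.63 for Hmox1, the inducible haem oxygenase. In all 12 the FSK libraries did not overlap those of Ex-4, which follows from choosing them by size in these same libraries. Of all tested genes, 27.4% showed no overlap in that direction. The 12 also lay above CON by 0.20 to 2.12 log2 units with Ex-4 and by 3.03 to 6.01 with FSK.

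On the other side stood genes that FSK had lowered and that Ex-4 left nearer to CON. Glb1l2 (NM_001192018, rn6 chromosome 8, 27807301 to 27852996), a beta-galactosidase-like protein, had 25.9 and 24.8 TPM with Ex-4, 2.06 and 1.91 TPM with FSK and 51.1 and 48.3 TPM in CON (log2 difference 3.14, SE 0.07, adjusted p 1.59e-21). Vil1, the actin-bundling protein villin, had 64 and 61.6 TPM with Ex-4, 6.64 and 6.86 with FSK and 103 and 101 in CON (3.04). Rph3al, the Rab effector Noc2 of secretory granules, had 67.7 and 69.5 TPM with Ex-4 and 10 and 10.6 TPM with FSK (2.62). Mmachc, which processes vitamin B12 in the cytosol, had 31.5 and 28.9 TPM with Ex-4 and 3.13 and 3.23 TPM with FSK (2.90). Asic1, a proton-gated sodium channel, had 46.8 and 45.6 TPM with Ex-4 against 7.16 and 7.1 with FSK (2.54), and Ripply3, a transcriptional corepressor of T-box factors, had 164.1 and 164.2 TPM with Ex-4 against 30.7 and 29.2 with FSK (2.42). The other leading genes were Slc44a3, Efcab1, Oxr1, Ttc8, Anxa10 and Shc2. These 12 lay between 0.94 below and 0.04 above CON with Ex-4 on the log2 scale, and 2.38 to 4.09 below it with FSK.

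**Figure D2:**
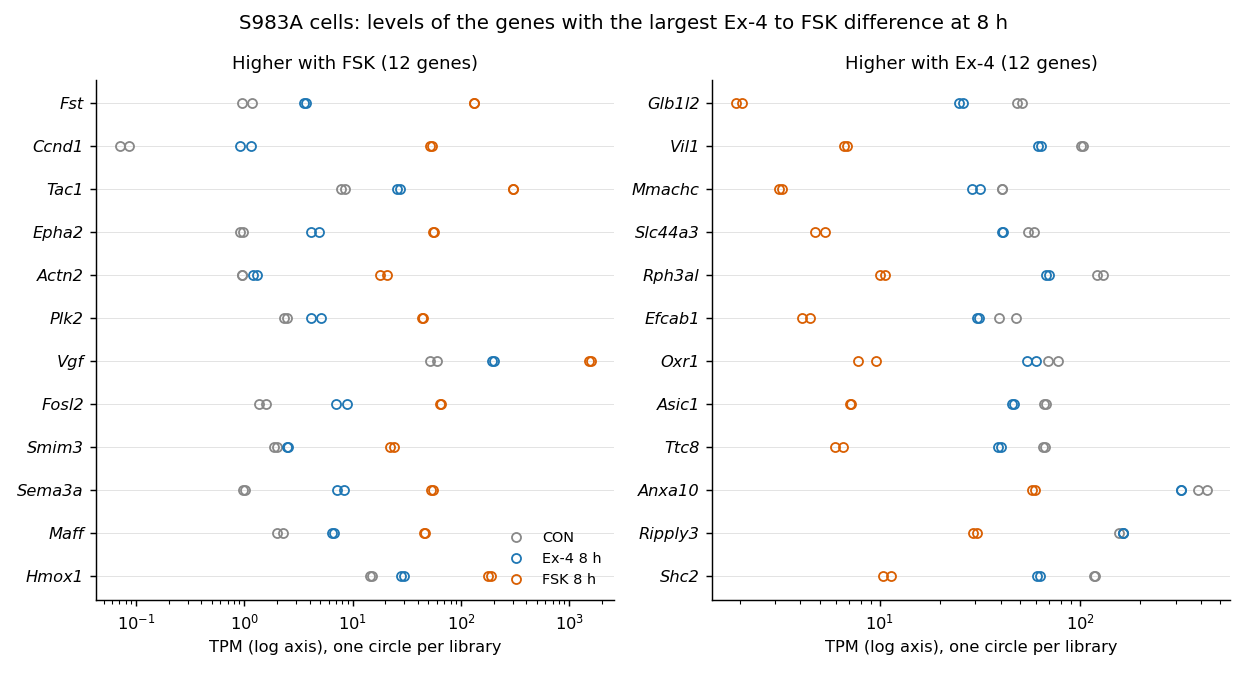
TPM on a log axis of the 12 genes with the largest difference in each direction among those averaging at least 10 TPM, one circle per S983A library, for CON (grey), Ex-4 at 8 h (blue) and FSK at 8 h (orange). In the left panel the FSK libraries lie to the right of Ex-4 and CON for every gene, and in the right panel they lie to the left, with Ex-4 mostly between FSK and CON.

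The promoters of Vgf, Plk2, Maff and Epha2, 4 of the 8 leading genes toward FSK that have a promoter in the table, hold a full CRE. They are shown with that of Scg2, which holds the same site but stood on the Ex-4 side, and with those of Dnajc3 and Herpud1, which hold elements of the stress groups described after them. Each sequence is the 250 bases before the RefSeq start of the gene in GRCr8, which is not the build of the TPM table, 5′ to 3′ on the strand of the gene. Capitals mark the palindromic CRE TGACGTCA in Vgf (90 bases before the start, counted to the first base of the match), Plk2 (66), Maff (51), Epha2 (52) and Scg2 (123). In Dnajc3 they mark the ER stress response element, CCAAT and CCACG with 9 bases of any kind between them, searched on both strands (133 bases before the start). In Herpud1 they mark TTGCATCA or its reverse complement TGATGCAA, the core of the amino acid response element (184 bases before the start).
Vgf (chr12:25277021-25277270, minus strand): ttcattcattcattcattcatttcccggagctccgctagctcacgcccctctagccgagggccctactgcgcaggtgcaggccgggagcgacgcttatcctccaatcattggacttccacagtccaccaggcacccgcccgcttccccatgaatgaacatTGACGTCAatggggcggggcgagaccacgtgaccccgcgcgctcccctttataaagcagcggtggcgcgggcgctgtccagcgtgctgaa
Plk2 (chr2:43702286-43702535, plus strand): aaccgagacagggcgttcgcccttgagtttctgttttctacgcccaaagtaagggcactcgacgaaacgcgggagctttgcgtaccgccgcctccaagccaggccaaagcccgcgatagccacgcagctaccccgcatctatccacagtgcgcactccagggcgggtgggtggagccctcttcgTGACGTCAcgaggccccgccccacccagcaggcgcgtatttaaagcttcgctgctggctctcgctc
Maff (chr7:112792537-112792786, plus strand): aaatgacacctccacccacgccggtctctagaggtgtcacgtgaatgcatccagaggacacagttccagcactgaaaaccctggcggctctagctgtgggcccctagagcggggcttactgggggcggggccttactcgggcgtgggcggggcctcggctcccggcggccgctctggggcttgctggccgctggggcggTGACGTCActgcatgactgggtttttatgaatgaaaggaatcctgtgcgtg
Epha2 (chr5:158888379-158888628, plus strand): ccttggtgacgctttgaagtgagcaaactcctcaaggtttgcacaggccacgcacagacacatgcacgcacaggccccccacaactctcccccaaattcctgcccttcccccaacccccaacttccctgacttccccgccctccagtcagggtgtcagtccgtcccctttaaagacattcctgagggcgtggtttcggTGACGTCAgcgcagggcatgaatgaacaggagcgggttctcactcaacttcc
Scg2 (chr9:88256867-88257116, minus strand): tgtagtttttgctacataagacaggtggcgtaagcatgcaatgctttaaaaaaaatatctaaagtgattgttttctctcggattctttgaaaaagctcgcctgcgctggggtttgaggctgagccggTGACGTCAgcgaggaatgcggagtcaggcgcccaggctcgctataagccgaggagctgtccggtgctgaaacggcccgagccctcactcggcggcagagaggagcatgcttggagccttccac
Dnajc3 (chr15:102432417-102432666, plus strand): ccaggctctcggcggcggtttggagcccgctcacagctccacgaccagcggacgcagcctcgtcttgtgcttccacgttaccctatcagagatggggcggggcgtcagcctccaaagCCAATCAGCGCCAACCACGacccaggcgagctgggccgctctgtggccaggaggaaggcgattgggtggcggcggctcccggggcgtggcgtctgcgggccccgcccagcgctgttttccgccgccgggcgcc
Herpud1 (chr19:10614708-10614957, minus strand): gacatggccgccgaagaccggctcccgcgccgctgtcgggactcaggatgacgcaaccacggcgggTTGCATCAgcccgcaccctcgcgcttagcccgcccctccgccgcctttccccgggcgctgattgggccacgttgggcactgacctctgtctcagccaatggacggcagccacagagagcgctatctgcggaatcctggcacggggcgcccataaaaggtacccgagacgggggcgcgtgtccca

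A promoter was found for 8447 of the 10275 tested genes (82.2%). The full CRE stood in 28 of 560 promoters of genes higher with FSK (5%), in 51 of 2478 of genes higher with Ex-4 (2.06%), in 187 of 5409 of genes not called (3.46%) and in 466 of all 27457 promoters of that length (1.7%). The AP-1 site TGACTCA or TGAGTCA stood in 6.07%, 2.78% and 2.57% of the 3 classes in the same order, and in 3.98% of all promoters. The amino acid core stood in 12, 7 and 21 promoters (2.14%, 0.282% and 0.388%), against 0.656% of all promoters. The ER stress element stood in only 7, 1 and 7 (1.25%, 0.0404% and 0.129%), against 0.0765%. Among tested genes with a promoter, 3.15% held the full CRE and 2.86% the AP-1 site. For the amino acid core and the ER stress element it was 0.474% and 0.178% of them. These shares are descriptions of the letters alone, and a match is neither a bound site nor a cause. Scg2 shows it: its promoter holds the full CRE, yet its transcript, coding for the granule protein secretogranin II, was higher with Ex-4 (846 and 806 TPM) than with FSK (284 and 289.7 TPM), both below CON (1378 and 1335 TPM).

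Along the pathway itself, the receptor differed little. Glp1r had 83.3 and 78.6 TPM with Ex-4, 61 and 62.5 TPM with FSK and 88.9 and 89.1 TPM in CON, and its difference of 0.38 (SE 0.04) was under the fold minimum. Of the 35 tested genes of the GLP-1 receptor, adenylyl cyclase and PKA list, 13 were higher with Ex-4 (37.1%) and 2 with FSK (5.71%), with a median of 0.32. These lie near the 29.8%, 6.72% and 0.25 of all genes. Centring left 6 and 4, and ERCC scaling 14 and 0. The larger differences were in the glucagon receptor Gcgr (39.8 and 39.9 TPM with Ex-4, 12 and 10.4 TPM with FSK), the PKA catalytic subunit Prkacb (58 and 55.9 TPM with Ex-4 against 17.6 and 17.2 with FSK) and the cyclase Adcy6 (48.6 and 49.3 TPM with Ex-4 against 22.4 and 20.4 with FSK). All of these were lower with FSK than in CON, where Prkacb had 91.7 and 87.1 TPM. The other catalytic subunit, Prkaca, differed by only 0.24 (183 and 177 TPM with Ex-4 against 156 and 149.7 with FSK). The cyclases Adcy5 and Adcy8, the receptor kinases Grk3, Grk5 and Grk6, the regulatory subunit Prkar2b, beta-arrestin Arrb2, Epac2 (Rapgef4), Gipr and Gnai1 made up the remaining genes higher with Ex-4, at 0.59 to 1.17, and Gnai1 was not called without Ex-4 replicate 2 (0.56) or FSK replicate 1 (0.58). The 2 genes higher with FSK were Prkar1a, the inhibitory type I subunit, with 503 and 508 TPM against 775 and 785 TPM (−0.62), and Arrb1 (−0.65), which fell short of the fold minimum without FSK replicate 1 (−0.52). Neither was called on ERCC scaling. Gnas, the Gs alpha subunit, was the most abundant of the list and differed by −0.19.

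The list of CREB targets and cAMP feedback genes leaned the other way. Of 30 tested members, 15 were higher with FSK (50%, against 6.72% of all genes). The phosphatase Dusp10 alone was higher with Ex-4 (3.33%, against 29.8% of all genes). The median was −0.60, against 0.25 over all genes. Crem, source of the repressor ICER, had 5.48 and 3.97 TPM in CON, 34.1 and 36.6 with Ex-4 and 209 and 208 with FSK (−2.52, SE 0.08, adjusted p 3.49e-19). Sik1, the salt-inducible kinase that holds CRTC coactivators out of the nucleus, had 1.71 and 1.27 TPM in CON, 10.2 and 12.3 with Ex-4 and 79.4 and 64.4 with FSK (−2.57). For both genes Ex-4 lay above CON, and the FSK mean was 5.88 and 6.39 times the Ex-4 mean. The GTPase regulator Rgs2 had 16.9 and 17.1 TPM with Ex-4 and 88.7 and 79 TPM with FSK (−2.23). Of the nuclear receptors, Nr4a2 had 3.34 and 3.63 TPM with Ex-4 against 20.9 and 19.1 with FSK (−2.23) and Nr4a1 39.5 and 39.1 TPM with Ex-4 against 70.1 and 60.5 with FSK (−0.71). Nr4a3 differed by −1.54 at under 7 TPM. Among phosphodiesterases, which degrade cAMP, Pde4d had 12.4 and 13.8 TPM with Ex-4 against 45.8 and 43.1 with FSK (−1.69) and Pde10a 25.1 and 24.8 TPM with Ex-4 against 79.8 and 71.2 with FSK (−1.56). Pde4b, Pde3b, Pde8a and Pde2a differed by −0.55 to 0.14 and were not called. The MAP kinase phosphatases Dusp4, Dusp1, Dusp5 and Dusp6 were higher with FSK, at −1.74, −1.26, −0.73 and −0.65, of which Dusp6 was not called without Ex-4 replicate 2 (−0.55). Ppargc1a (−1.83), Irs2 (−1.03) and the clock gene Per1 (−1.03) complete the called members. Gem, Bhlhe40, Creb3l2, Dusp8, Cited2, Smad7, Creb1, Atf1, Crtc1 and Crtc2 were not called, at −0.55 to 0.42. On centring 21 members were higher with FSK, and on ERCC scaling 14.

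AP-1 genes, which code for early transcription factors of the Fos and Jun families, also stood toward FSK. Of 24 tested members of the AP-1 and early growth response list, 12 were higher with FSK (50%, against 6.72% of all genes). Klf10 alone was higher with Ex-4 (4.17%, against 29.8% of all genes), and the median was −0.57. Fosl2, a Fos-related AP-1 subunit, had 1.35 and 1.57 TPM in CON, 7.05 and 8.83 with Ex-4 and 65.6 and 63.9 with FSK (−2.89). Fosl1 had 0 and 0.044 TPM in CON, 0.143 and 0.146 with Ex-4 and 9.14 and 7.59 with FSK (−3.03). Fos had 5.23 and 5.16 TPM with Ex-4 and 24.1 and 19.7 TPM with FSK at 8 h (−1.88). Maff, a small Maf factor, had 6.69 and 6.5 TPM with Ex-4 against 45.6 and 46.5 with FSK (−2.63). Of 3 genes that the study names as delayed cAMP targets, Plat (0.116 and 0.182 TPM with Ex-4 against 2.14 and 2.06 with FSK) and Kdr (0.119 and 0.246 TPM with Ex-4 against 1.83 and 2.09 with FSK), coding for tissue plasminogen activator and a VEGF receptor, were higher with FSK. Osbpl6 had 5.39 and 4.88 TPM with Ex-4 against 4.87 and 5.29 with FSK (0.01). Of a risk locus that the study follows, Bcar1 had 27.6 and 27 TPM with Ex-4 against 18.1 and 17.3 with FSK (higher with Ex-4 by 0.60, or by 0.57 and not called without FSK replicate 2) and Ctrb1 1.11 and 0.735 TPM with Ex-4 against 0.419 and 0.54 with FSK. The delayed genes were singled out by the study in these cells, so they are no independent evidence of a direction.

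Secreted peptides and hormones made another group toward FSK, with 9 of 18 tested members higher with FSK (50%, against 6.72% of all genes). Another 4 were higher with Ex-4 (22.2%, against 29.8% of all genes), and the median was −0.49. Vgf (NM_030997, rn6 chromosome 12, 22677607 to 22680630), precursor of neuroendocrine peptides and counted with granule cargo, had 51.9 and 59.4 TPM in CON, 204 and 194 with Ex-4 and 1584 and 1529.9 with FSK (−2.96, SE 0.07, adjusted p 7.01e-22). Cck, cholecystokinin, had 33.1 and 38.5 TPM in CON, 155 and 157 with Ex-4 and 638 and 663 with FSK (−2.05), and Gast, gastrin, had 7.37 and 8.15 TPM in CON, 26.1 and 26.7 with Ex-4 and 123 and 119 with FSK (−2.15). In each of these the order was CON, Ex-4, FSK with no overlap between the 3 groups. Gcg, proglucagon, had 6.09 and 6.55 TPM in CON, 38.5 and 41.9 with Ex-4 and 102 and 110.3 with FSK (−1.38), while the other markers of that cell type were under 1 TPM. In bulk RNA, more cells of a type and more RNA per cell cannot be told apart. The members higher with Ex-4 were Igf2 (383 and 363 TPM with Ex-4 against 204 and 203 with FSK), the inhibin subunit Inhbb (1.10), secretin (Sct, 0.59) and Tgfb1 (0.66, or 0.51 and not called without Ex-4 replicate 2). With centring 10 members were higher with FSK and 1 with Ex-4.

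Genes of the amino acid response, which the factor ATF4 drives when translation is curbed, had the highest share toward FSK of the lists tested. Of 27 tested ATF4 targets and amino acid genes, 19 were higher with FSK (70.4%) and 1 with Ex-4 (3.7%). Of all genes, 6.72% were higher with FSK and 29.8% with Ex-4. The median of the list was −0.93. Against the shared CON the same list had 20 higher with Ex-4 and 25 with FSK, none lower, so Ex-4 also left it above CON. Of all genes, 3.21% were higher than CON with Ex-4 and 11.6% with FSK. Trib3, a pseudokinase induced by ATF4, had 7.51 and 8.27 TPM in CON, 35.1 and 39.1 with Ex-4 and 204 and 195 with FSK (−2.40). Ddit3, the stress factor CHOP, had 55 and 56.8 TPM in CON, 109 and 112 with Ex-4 and 488 and 494 with FSK (−2.14), and Ppp1r15a, which directs dephosphorylation of eIF2alpha, had 44.5 and 43.4 TPM with Ex-4 against 197 and 187 with FSK (−2.10). The amino acid carriers Slc7a11 (−1.86), Slc7a1 (−1.36) and Slc3a2 (241.0 and 240.8 TPM with Ex-4 against 576 and 572 with FSK, −1.25) were higher with FSK as well. Pycr1, a proline synthesis enzyme, was the exception, with 12 and 12.2 TPM in CON, 31.7 and 32.2 with Ex-4 and 21.4 and 20.3 with FSK (0.59), a difference at the fold minimum that was not called without Ex-4 replicate 2 (0.58) or FSK replicate 2 (0.55), nor on centring (0.29). Of 20 cytosolic tRNA synthetases, 7 were higher with FSK (35%, against 6.72% of all genes) and 2 with Ex-4 (10%, against 29.8%). Centring gave 13 and 1. Sars1 had 358 and 365 TPM with Ex-4 against 864.5 and 864.3 with FSK (−1.25), and Qars1 went against it with 48.3 and 48.2 TPM with Ex-4 against 18.3 and 19.5 with FSK (1.31).

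Of 51 genes of ER folding and ER stress, 22 were higher with FSK (43.1%), 3 with Ex-4 (5.88%) and 26 were not called. Of all genes, 6.72% were higher with FSK and 29.8% with Ex-4. The median of the list was −0.51. Herpud1, of ER-associated degradation, had 134 and 141 TPM in CON, 222 and 225 with Ex-4 and 739 and 679 with FSK (−1.66). Dnajc3, a co-chaperone that restrains the eIF2alpha kinase PERK, had 65.3 and 55.9 TPM in CON, 111 and 110.4 with Ex-4 and 323 and 314 with FSK (−1.51). Ern1, the stress sensor IRE1, differed by −1.39. The exceptions were Atf6b (187 and 181 TPM with Ex-4, 66.4 and 64.2 with FSK), Edem2 and Fkbp11 (283 and 288 TPM with Ex-4 against 152 and 156 with FSK), of which the first had 158 and 166 TPM in CON. Centring gave 33 toward FSK and 2 toward Ex-4, and ERCC scaling 17 and 4. Further along the secretory path, 5 of 43 Golgi and coat genes were higher with FSK (11.6%, against 6.72% of all genes) and 2 with Ex-4 (4.65%, against 29.8%). The COPII subunits Sec23b (273.3 and 273.2 TPM with Ex-4 against 557 and 536 with FSK) and Sec24a (−0.92) led toward FSK. Centring gave 23 and 1 there.

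**Figure D3:**
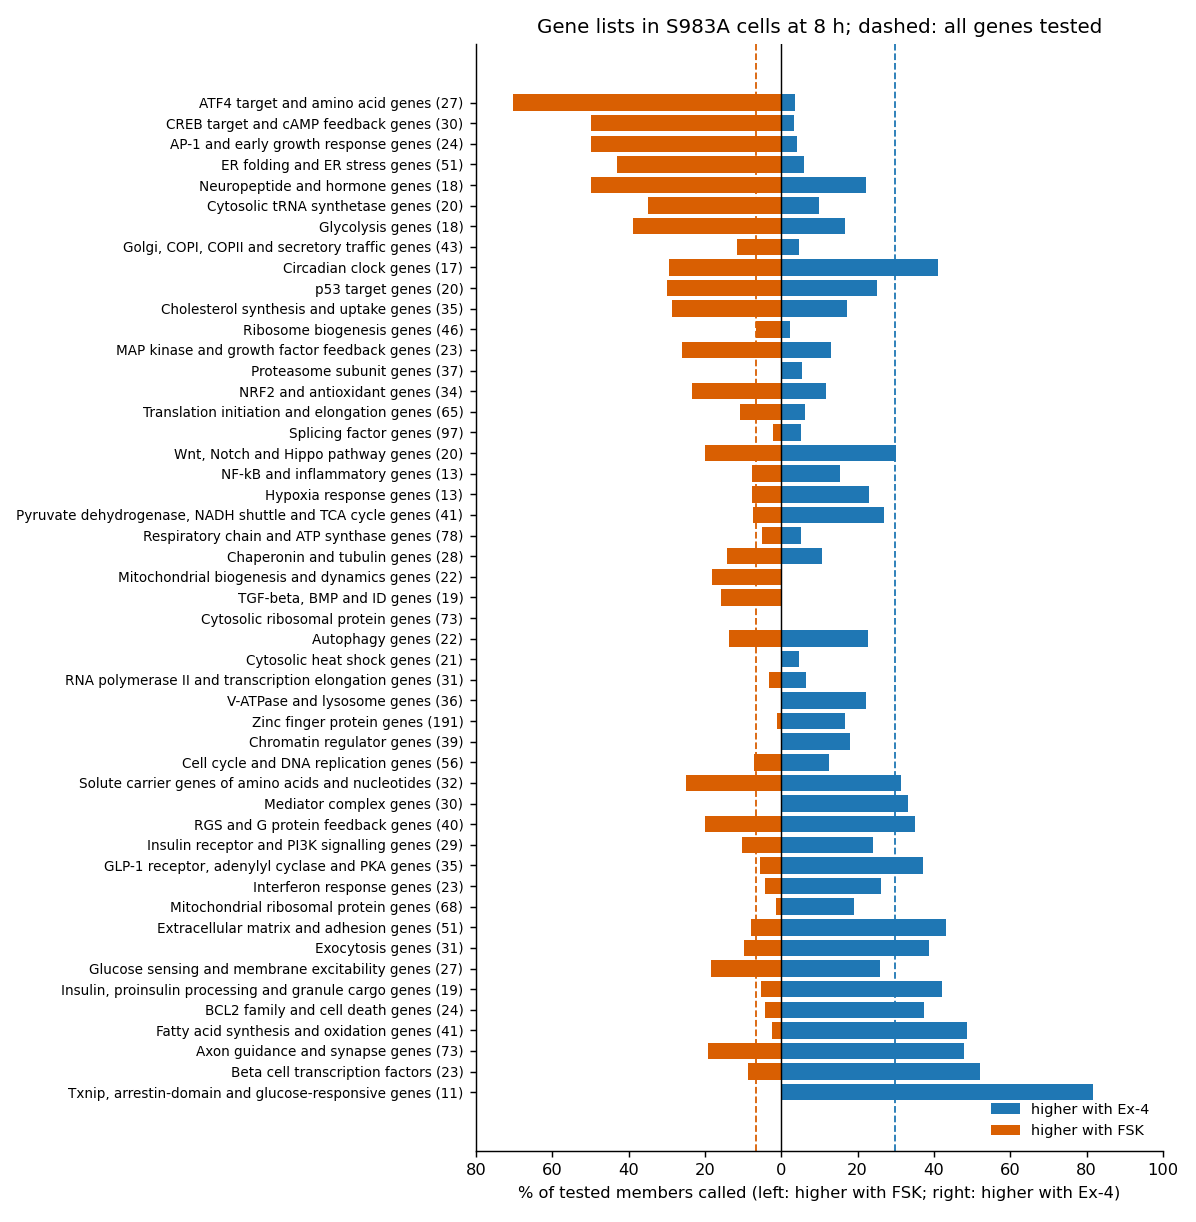
Percent of tested members called higher with Ex-4 (blue, right) or higher with FSK (orange, left) in gene lists with at least 10 tested members, with the number tested in brackets, ordered by median difference. Dashed lines show the 29.8% and 6.72% of all tested genes, and ATF4, CREB, AP-1 and ER lists extend far past the left line while Txnip and beta cell factor lists extend past the right line.

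Metabolic lists divided. Of 18 tested glycolysis genes, 7 were higher with FSK (38.9%, against 6.72% of all genes) and 3 with Ex-4 (16.7%, against 29.8%). The median was −0.38, and centring gave 10 and 3. The lactate and pyruvate carrier Slc16a1 had 9.78 and 9.59 TPM in CON, 19.9 and 20 with Ex-4 and 75.3 and 73 with FSK (−1.85), and the phosphofructokinase Pfkp 59.7 and 56 TPM with Ex-4 against 95.3 and 103 with FSK (−0.77). The muscle-type phosphofructokinase Pfkm went the other way (148 and 150.2 TPM with Ex-4 against 58.9 and 61.3 with FSK), as did the pyruvate kinase Pklr (101 and 104 TPM in CON, 68.2 and 69.2 with Ex-4, 15.34 and 15.29 with FSK, 2.09). Of 41 fatty acid genes, 20 were higher with Ex-4 (48.8%, against 29.8% of all genes) and 1 with FSK (2.44%, against 6.72%). That 1 was the acyl-CoA synthetase Acsl5 (89.8 and 88.8 TPM with Ex-4 against 180.5 and 187 with FSK, −1.03), and centring left 11 and 5. Oxidation enzymes were among the 20, with Acads at 31.1 and 29.7 TPM with Ex-4 against 10.1 and 10.7 with FSK (1.46) and Acaa2 at 1.35. Of 35 cholesterol genes, 10 were higher with FSK (28.6%, against 6.72% of all genes) and 6 with Ex-4 (17.1%, against 29.8%). Among those toward FSK were Msmo1 (355 and 365 TPM with Ex-4 against 845 and 852 with FSK) and Hmgcs1 (128 and 135 TPM with Ex-4 against 286 and 288 with FSK). Among those toward Ex-4 was the sterol exporter Abca1 (31.5 and 29.1 TPM with Ex-4 against 16.5 and 14 with FSK). Centring gave 16 and 3 in that order. In the TCA cycle and its feeders, 11 of 41 were higher with Ex-4 (26.8%) and 3 with FSK (7.32%), about the shares of all genes, a split that centring turned to 5 and 14. Idh2 had 260.3 and 259 TPM with Ex-4 against 93.3 and 99.3 with FSK (1.42), and Pdk2, a kinase that switches off pyruvate dehydrogenase, 24.2 and 25 TPM with Ex-4 against 5.92 and 5.73 with FSK (1.91). Of 78 respiratory chain genes 4 were called in each direction (5.13%). That share lies far below the 29.8% of all genes higher with Ex-4 and near the 6.72% higher with FSK. Cycs, cytochrome c, was higher with FSK (−1.13) and Ndufs7 with Ex-4 (1.01), and centring gave 12 toward FSK and 2 toward Ex-4.

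Txnip and its relatives had the highest share toward Ex-4 of the lists tested. Txnip (NM_001008767, rn6 chromosome 2, 198683168 to 198686968), the thioredoxin-interacting arrestin that glucose induces, had 55.9 and 52.9 TPM in CON, 13.5 and 13.1 with Ex-4 and 3.04 and 2.88 with FSK (1.85, SE 0.08, adjusted p 2.94e-16). Both agents were below CON and FSK further so. Arrdc4, a related arrestin, had 94.5 and 88 TPM in CON, 56.2 and 54.5 with Ex-4 and 11.7 and 11.3 with FSK (2.17). Of the 11 tested genes of this list 9 were higher with Ex-4 (81.8%, against 29.8% of all genes). None was higher with FSK (against 6.72% of all genes), and the median was 0.81. Centring left 5 of 11, and ERCC scaling gave 10. The list shares Mlxipl, Pklr, Tgfb1 and Klf10 with others described here.

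Beta cell transcription factors also had a larger share toward Ex-4 than all genes. Of 23 tested factors, 12 were higher with Ex-4 (52.2%, against 29.8% of all genes) and 2 with FSK (8.7%, against 6.72%). The median was 0.59, and 9 were not called. Against CON, 4 were lower and none higher with Ex-4, while 13 were lower and 4 higher with FSK. Of all genes, 3.09% were lower and 3.21% higher with Ex-4, and 34.5% lower and 11.6% higher with FSK. Neurod1, an activator of the insulin genes, had 215 and 221 TPM in CON, 122 and 119 with Ex-4 and 23.1 and 23 with FSK (2.33, SE 0.05). Isl1, a LIM homeodomain factor, had 139.6 and 139.9 TPM in CON, 113.0 and 112.8 with Ex-4 and 44.5 and 41.1 with FSK (1.38). Nkx6-1, a factor of beta cell identity, had 29.9 and 27.2 TPM with Ex-4 against 15.7 and 15.3 with FSK (0.84). The 2 factors higher with FSK, Prox1 and Tcf7l2, were under 7 TPM in all 4 libraries. Centring cut the 12 to 7 and raised the 2 to 5.

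The insulin genes themselves were not called on TPM, though each was on another scale. Ins1 had 38834 and 42395 TPM in CON, 47595 and 48326 with Ex-4 and 61034 and 59014 with FSK (−0.32), and Ins2 32620.4 and 37516 TPM in CON, 27475 and 26489 with Ex-4 and 19393 and 18482 with FSK (0.51). Ins1 was called higher with FSK on centring (−0.63) and Ins2 higher with Ex-4 on ERCC scaling (0.62). Their coding sequences are close copies, so reads may be split between them. Of 19 tested genes of insulin processing and granule cargo, 8 were higher with Ex-4 (42.1%, against 29.8% of all genes). Vgf alone was higher with FSK (5.26%, against 6.72% of all genes), and centring left 5 and 3. The zinc carrier Slc30a8 had 817 and 749.9 TPM in CON, 562 and 541 with Ex-4 and 313 and 289 with FSK (0.87). Chgb, chromogranin B, had 176.5 and 175.9 TPM in CON, 322 and 343 with Ex-4 and 135 and 149 with FSK, so that Ex-4 lay above CON and FSK below it. Granule docking factor Sytl4 had 256 and 248 TPM with Ex-4 against 90.5 and 90.6 with FSK (1.47). In exocytosis, 12 of 31 genes were higher with Ex-4 (38.7%) and 3 with FSK (9.68%), both a little above the 29.8% and 6.72% of all genes, and centring made them 7 and 7. The priming factor Cadps (10.7 and 10.5 TPM with Ex-4 against 2.11 and 1.58 with FSK) and Rab3b (82.4 and 79.6 TPM with Ex-4 against 23.8 and 22.6 with FSK) stood with Rph3al on the Ex-4 side, and the synaptotagmins Syt4 (38.9 and 33.3 TPM in CON, 80.9 and 81.2 with Ex-4, 263 and 275 with FSK), Syt5 and Syt7 on the FSK side. Syt7 (−0.66) was not called without FSK replicate 1 (−0.58).

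Axon guidance and synapse genes were called in both directions, and 24 of 73 were not called. Of the 73, 35 were higher with Ex-4 (47.9%, against 29.8% of all genes) and 14 with FSK (19.2%, against 6.72%). Centring made these 24 and 17. Sema3a, a secreted repulsive cue, had 1 and 0.979 TPM in CON, 7.09 and 8.24 with Ex-4 and 55 and 52.9 with FSK (−2.67), and the netrin receptor Unc5b 5.44 and 4.97 TPM with Ex-4 against 25.6 and 22.1 with FSK. Efnb3, an ephrin, had 7.85 and 7.17 TPM with Ex-4 and 0.476 and 0.5 TPM with FSK (2.52), and the GABA receptor subunit Gabra4 26.3 and 23.6 TPM with Ex-4 against 4.63 and 5.11 with FSK (2.15). Of 51 matrix and adhesion genes, 22 were higher with Ex-4 (43.1%, against 29.8% of all genes). Toward FSK there were 4 (7.84%, near the 6.72% of all genes). The median was 0.37, and centring gave 16 and 5. The Ex-4 side was led by the protease Adamts16 (1.67) and the collagen Col9a1 (3.53 and 3.19 TPM with Ex-4 against 0.469 and 0.407 with FSK, 1.60). On the FSK side, thrombospondin 1 (Thbs1) had 0.631 and 0.614 TPM with Ex-4 and 15 and 12.8 TPM with FSK (−3.19), and fibronectin (Fn1) 37.6 and 38.4 TPM in CON, 163 and 151 with Ex-4 and 325 and 291 with FSK (−0.97). Growth factor signalling held Igf1r (12 and 12.6 TPM in CON, 28.2 and 26.8 with Ex-4 and 135 and 127 with FSK, −2.21) and the feedback inhibitors Spry1 (−2.27) and Errfi1 (69.6 and 69.4 TPM with Ex-4 against 277 and 270.3 with FSK, −1.96) toward FSK, and Akt1 (1.28) and Mapk3 (201 and 192 TPM with Ex-4 against 54.6 and 50.4 with FSK, 1.89) toward Ex-4.

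Clock and channel genes were divided between the agents. Of 17 tested circadian genes, 7 were higher with Ex-4 (41.2%, against 29.8% of all genes) and 5 with FSK (29.4%, against 6.72%). Centring made these 6 and 8. The repressors Nfil3 and Cry2 were higher with FSK, with 7.05 and 6.76 TPM in CON, 22.9 and 22.8 with Ex-4 and 72.8 and 72.6 with FSK for Nfil3 (−1.63) and −1.26 for Cry2. Per3 (10.2 and 10.8 TPM in CON, 3.76 and 3.79 with Ex-4 and 0.55 and 0.386 with FSK) and Nr1d2, the receptor REV-ERBbeta (1.46), were higher with Ex-4 and below CON with both agents. Id4, an inhibitor of basic helix-loop-helix factors, had 17.2 and 16.4 TPM in CON, 93.7 and 90.2 with Ex-4 and 278 and 297 with FSK (−1.63). The orphan receptor Gprc5a, nearly silent in CON (0.062 and 0.018 TPM), had 0.386 and 0.374 TPM with Ex-4 and 13.65 and 13.59 TPM with FSK. Atp2a2, the calcium pump SERCA2, had 310.4 and 307 TPM with Ex-4 against 648 and 613 with FSK (−1.03), whereas the potassium channels Kcnh2 (1.10) and Kcnh6 (29.3 and 31.9 TPM with Ex-4 against 12.7 and 11 with FSK) and the calcium channel subunit Cacna1a (1.02) were higher with Ex-4. Slc2a1, the glucose carrier GLUT1, had 52.8 and 55.6 TPM in CON, 76.8 and 69.8 with Ex-4 and 149.7 and 163 with FSK (−1.08). Antioxidant genes had Srxn1 (−1.47) and Hmox1 toward FSK and the glutathione transferase Gstm1 (1.14) toward Ex-4, with 8 and 4 of 34 called (13 and 1 with centring). The 8 made up 23.5%, against 6.72% of all genes, and the 4 made up 11.8%, against 29.8%. Of 39 chromatin regulators 7 were higher with Ex-4 (17.9%, below the 29.8% of all genes) and none with FSK (limma, 4 and 1 with centring), among them Hdac5, a class IIa deacetylase (71.1 and 72.5 TPM in CON, 38.9 and 37 with Ex-4 and 7.59 and 8.11 with FSK), and the remodeller Smarca2 (45.9 and 44.8 TPM with Ex-4 against 10.3 and 10.5 with FSK).

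Several large housekeeping lists had few calls toward Ex-4. None of 73 cytosolic ribosomal protein genes was called in either direction (limma, median 0.10), also with centring, and 1 was higher with Ex-4 on ERCC scaling. Of 97 splicing factors 5 were higher with Ex-4 and 2 with FSK, of 37 proteasome subunits 2 and 0, of 65 translation factors 4 and 7, and of 46 ribosome biogenesis genes 1 and 3. Their shares higher with Ex-4 were 5.15%, 5.41%, 6.15% and 2.17%, against 29.8% of all genes. Their shares higher with FSK were 2.06%, 0%, 10.8% and 6.52%, against 6.72% of all genes. On centring these lists moved toward FSK, with 4 and 16, 1 and 7, 3 and 24, and 0 and 20 in the same order. Mediator subunits had 10 of 30 higher with Ex-4 and none with FSK, a share of 33.3% near that of all genes, with Med12 (13.3 and 12.7 TPM with Ex-4 against 5.06 and 4.42 with FSK) and the kinase Cdk19 (25.3 and 23.9 TPM with Ex-4 against 11 and 10.5 with FSK) among them. Centring left 5 Mediator genes higher with Ex-4 and 2 with FSK. In the cell cycle list, 7 of 56 were higher with Ex-4 (12.5%, below the 29.8% of all genes), such as Tk1 (149.8 and 149 TPM with Ex-4 against 59.4 and 60.6 with FSK) and E2f1, and 4 with FSK (7.14%, near the 6.72% of all genes), such as the inhibitor Cdkn1a (6.3 and 5.99 TPM in CON, 8.87 and 8.14 with Ex-4 and 33.7 and 32.6 with FSK, −1.85). Centring made these 5 and 7.

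The difference between the agents changed with time. At 1 h 149 genes (1.45%) were higher with Ex-4 and 162 (1.58%) with FSK, and at 16 h the counts were 1085 (10.6%) and 592 (5.76%). These comparisons share no library with that at 8 h. Among the 3057 genes toward Ex-4, 47 were called so at 1 h too (1.54%, and 31.5% of the 1 h list) and 889 at 16 h (29.1%, and 81.9%). The 1.54% and 31.5% lie near the shares of all genes called so at 1 h (1.45%) and at 8 h (29.8%). Among the 690 toward FSK, 95 were so at 1 h (13.8%, and 58.6%) and 303 at 16 h (43.9%, and 51.2%). A direct test of 8 h minus 16 h called 2220 genes with a more positive difference at 8 h (21.6%) and 448 with a more negative one (4.36%). Centring gave 1197 (11.6%) and 919 (8.94%), and ERCC scaling 5473 (53.3%) and 129 (1.26%). For 8 h minus 1 h the counts were 2610 (25.4%) and 810 (7.88%).

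Single genes followed several courses. Crem peaked early, with 232 and 228 TPM at 1 h of Ex-4 and 409.5 and 479.5 TPM at 1 h of FSK, and at 16 h it had 38.8 and 35.9 TPM with Ex-4 against 95 and 97.9 with FSK. Trib3 narrowed its gap, since Ex-4 reached 86.5 and 87 TPM at 16 h while FSK had 142 and 146 TPM (8 h minus 16 h −1.67, SE 0.13, adjusted p 8.54e-11). Vgf and Fst kept theirs, with 128 and 155 against 1267 and 1192 TPM and 2.7 and 2.18 against 96.6 and 89.5 TPM at 16 h, and time differences of 0.15 and −0.07. Rab26, a GTPase of secretory granules, crossed over, since FSK had 7.31 and 7.14 TPM at 8 h but 67.8 and 69.8 TPM at 16 h, and Ex-4 had 28.3 and 26 TPM at 8 h and 47.9 and 47.2 TPM at 16 h (time difference 2.30). Tspan17 (2.69), Dhrs1 (2.14), Stn1 (2.13) and Slc44a3 (2.12) likewise were low with FSK at 8 h and had returned in part or fully by 16 h. Fxyd5, a regulator of the sodium pump, came late with FSK, from 2.95 and 2.74 TPM at 8 h to 37 and 35.2 TPM at 16 h, while Ex-4 had 0.99 and 0.932 TPM. Pdlim1, Cntfr, Wif1 and Mertk had negative time differences of −2.25 to −1.67, by different routes. Pdlim1, a LIM domain protein of the actin cytoskeleton, had 326 and 322 TPM with FSK at 8 h but 47.4 and 43.6 TPM at 16 h, against 108 and 110.3 and then 72.5 and 75.2 TPM with Ex-4. Wif1, a secreted Wnt inhibitor, was lower with FSK at 16 h (23.9 and 26.5 TPM) than at 8 h (95.1 and 93.9 TPM), while Ex-4 had 257 and 239 TPM at 16 h. Scg2 widened in the same way, with 1182 and 1165 TPM for Ex-4 and 134 and 139 TPM for FSK at 16 h (−1.57). Txnip differed little at 16 h, with 5.93 and 4.49 TPM with Ex-4 against 6.32 and 6.34 with FSK (−0.25 at 16 h, adjusted p 0.0116). The ATF4 list had no member higher with Ex-4 at 16 h, and 8 of 27 higher with FSK, and granule cargo had 11 of 19 higher with Ex-4. Of all tested genes, 10.6% were higher with Ex-4 and 5.76% with FSK at 16 h.

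**Figure D4:**
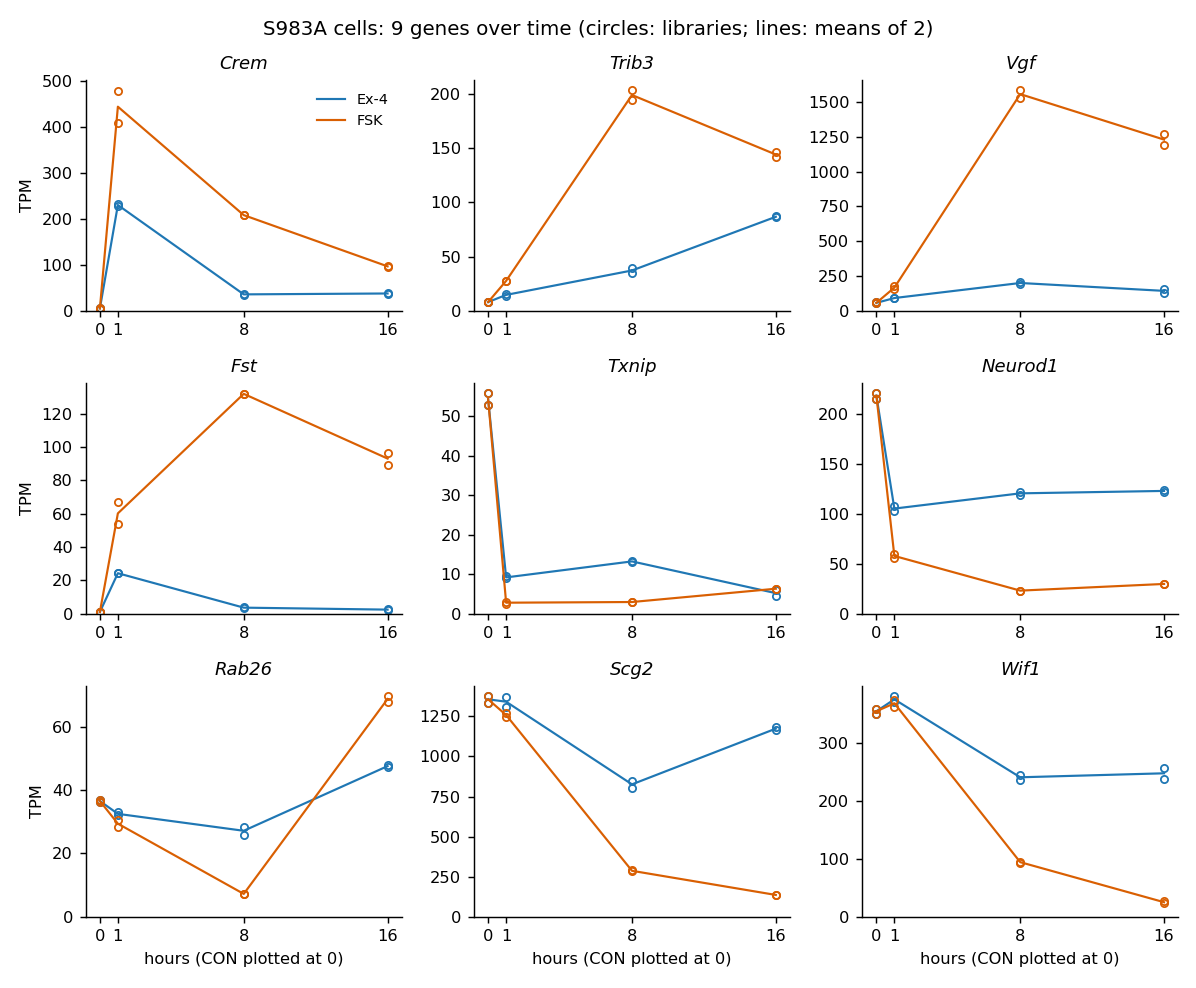
TPM of 9 genes in S983A cells against hours of Ex-4 (blue) or FSK (orange), with a circle per library, lines through the means of 2 and CON, which has no time label, plotted at 0. Crem peaks at 1 h, Vgf, Fst and Neurod1 keep the agents apart at 16 h, Txnip and Trib3 approach each other, and Rab26 crosses.

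WT cells gave fewer calls at 8 h, with 2396 genes (23.3%) higher with Ex-4 and 490 (4.77%) with FSK. The WT and S983A comparisons share no library, and since the S983A cells came from sorted single cells, genotype and line cannot be told apart. Of the S983A calls, 2045 of those higher with Ex-4 (66.9%, and 85.4% of the WT calls) and 361 of those higher with FSK (52.3%, and 73.7%) were called in the same direction in WT. The test of the difference between genotypes called 521 genes (5.07%) with a more positive difference in S983A and 322 (3.13%) with a more negative one, 843 in all (8.2%). Centring gave 454 (4.42%) and 363 (3.53%), and ERCC scaling 494 (4.81%) and 349 (3.4%). All of the 12 leading genes toward FSK had the same sign in WT. In all 12 the size differed between genotypes at an adjusted p under 0.05 with no fold minimum, as it did in 11 of the 12 toward Ex-4 (limma). At that threshold 4237 of all 10275 tested genes differed, and the leading genes were chosen for their size in S983A. Vgf differed by −2.96 in S983A and by −1.47 in WT, where it had 367 and 359.7 TPM in CON, 861 and 899 with Ex-4 and 2318 and 2552 with FSK (genotype difference −1.50, adjusted p 7.68e-12). Crem differed by −1.43 in WT (genotype difference −1.09), with 61.6 and 64 TPM with Ex-4 against 171 and 172 with FSK. Nr4a1 was the reverse, with a wider gap in WT (−1.70) than in S983A (−0.71, genotype difference 0.98). Glp1r (0.01), Adcy6 (0.01) and Fos (−0.02) had genotype differences within their standard errors of 0.05 to 0.15.

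The largest genotype differences included genes that one genotype hardly expressed. Ret, the receptor tyrosine kinase for GDNF ligands, had 0.469 and 0.464 TPM in S983A CON, 0.321 and 0.368 with Ex-4 and 6.15 and 4.69 with FSK, while WT had 54.6 and 51.1 TPM in CON, 27.5 and 28.1 with Ex-4 and 15.3 and 17.4 with FSK (genotype difference −2.98). Nmu, neuromedin U, had 0.025 and 0 TPM with Ex-4 and 0.075 and 0.109 TPM with FSK in S983A and 8.16 and 8.68 TPM with Ex-4 and 58.6 and 60.9 TPM with FSK in WT (2.58). Pmp22, a myelin and junction protein, was likewise near 0 in S983A (0.093 and 0.058 TPM with Ex-4) and had 19 and 21.2 TPM with Ex-4 and 75.6 and 81.7 with FSK in WT. Mt2A, a metallothionein, was near 0 in WT (0 and 0.1 TPM with Ex-4) and had 8.98 and 6.49 TPM with Ex-4 and 35.8 and 34.8 with FSK in S983A. In Nmu, Pmp22 and Mt2A, 1 genotype was thus close to 0 with both agents, and the genotype differences of Nmu and Mt2A were not called by edgeR or DESeq2. Anxa10, an annexin, was expressed in both, with 320.0 and 320.1 TPM with Ex-4 against 59.3 and 57.1 with FSK in S983A and 609.7 and 625 TPM with Ex-4 against 569.9 and 569 with FSK in WT (2.32, SE 0.06). Mmp15, a membrane-type matrix metalloproteinase, had 8.08 and 8.73 TPM with Ex-4 against 11.9 and 11.5 with FSK in S983A and 24.9 and 25.8 TPM with Ex-4 against 6.15 and 6.04 with FSK in WT (−2.33). Txnip was far more abundant in WT, with 329 and 312 TPM in CON, 47.3 and 45 with Ex-4 and 2.32 and 1.99 with FSK, so its gap was wider there (3.90) than in S983A (1.85). Pdzrn3, a ubiquitin ligase, was one of 9 genes called in opposite directions, with 3.74 and 3.64 TPM with Ex-4 against 1.56 and 1.59 with FSK in S983A and 10.3 and 10.7 TPM with Ex-4 against 38.7 and 39.4 with FSK in WT. Ret, Misp3, Il17rb, Cx3cl1, Ptger3, Dusp6 and Tjp3 were higher with FSK in S983A and with Ex-4 in WT, and Pycr1 was higher with Ex-4 in S983A and with FSK in WT. All 9 had a called genotype difference, which opposite calls past the fold minimum in the same fit make all but certain. Dusp6, a phosphatase for ERK, had 5.14 and 4.36 TPM with Ex-4 against 8.39 and 7.62 with FSK in S983A and 10.5 and 11.2 TPM with Ex-4 against 6.97 and 6.83 with FSK in WT (−1.24). Il17rb, Cx3cl1, Ptger3 and Tjp3 were picked out after their values were seen. Of the 35 cholesterol genes, 10 had a more positive and 3 a more negative difference in S983A, against 5.07% and 3.13% of all genes. The median of the list was −0.23 in S983A and −0.42 in WT, with 10 and 16 of its genes higher with FSK.

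**Figure D5:**
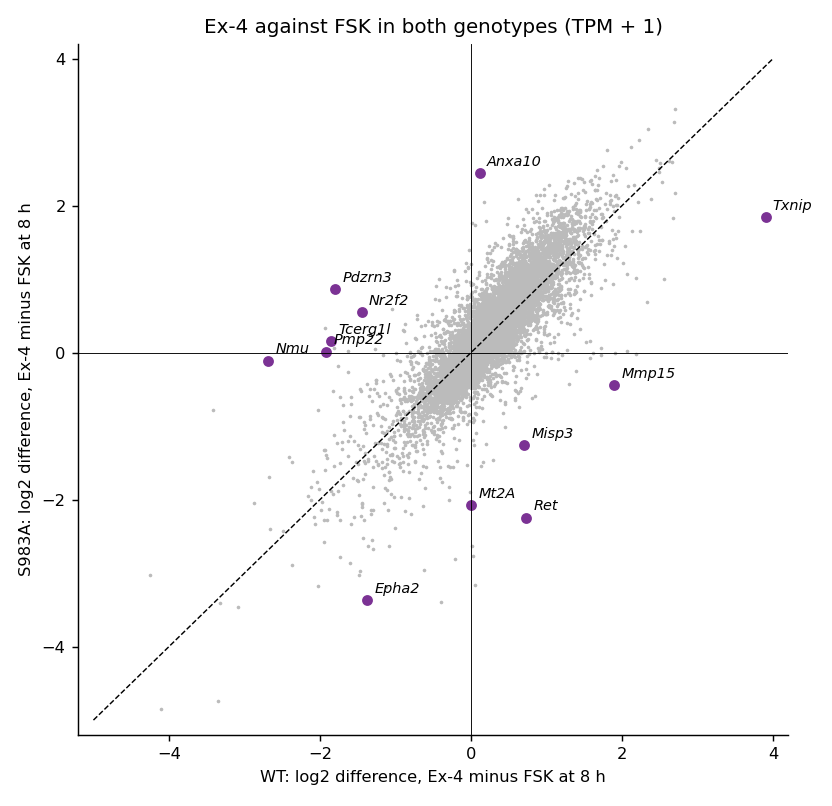
Log2 difference of TPM + 1, Ex-4 minus FSK at 8 h, in WT (x) and S983A (y) for each tested gene, with the 12 largest genotype differences among genes of at least 10 TPM on average marked in purple and the line of equal differences dashed. Most genes lie along the line, and Anxa10, Pdzrn3, Nmu and Pmp22 lie above it while Ret, Mt2A, Mmp15 and Txnip lie below it.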

How the data were processed

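RNA-seq of INS-1 cells was used from 28 libraries in 14 groups of 2, grouped by their titles. The authors aligned reads to rn6 with STAR 2.5.3a and deposited TPM per transcript from HOMER 4.11.1, together with counts of ERCC spike-ins per library, which also entered their DESeq2 1.24.0 size factors. Of 19223 table lines 92 were ERCC and 1676 were further transcripts of a symbol, and for each of 17455 symbols the transcript with the highest mean TPM was kept. The 10275 genes averaging 1 TPM or more over all libraries were fitted with limma 3.58.1 (R 4.3.3) on log2(TPM + 1), which understates changes of low genes, with 14 group means, 14 residual degrees of freedom and Benjamini-Hochberg adjustment. Every adjusted p is from that fit unless another tool is named beside it. Calls took an adjusted p under 0.05 plus more than a 1.5-fold difference. Genotype and time differences were contrasts in the same fit. TPM times transcript length, scaled on the ERCC counts, gave fragments. These were rounded and used with edgeR 4.0.16 and DESeq2 1.42.0 as alternatives. Counted as reads, 2 to a fragment, 138979 low values with little rounding error were checked. Of these, 100% lay within their rounding error plus 0.05 of a whole read. On simulated counts for Ex-4 against FSK (10037 genes) limma called 99% of 100 genes changed 2-fold and 100% of 98 changed 3-fold. It made 0 wrong calls there. Only genes with many expected fragments were changed, up and down in equal numbers. Low genes, folds near 1.5 and a response mostly in 1 direction were not tested. A shift of the whole scale, such as the median difference of 0.25 between these agents, was not tested either. The same replicate number in different groups did not mark a shared batch in the labels.

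Named genes were the 12 with the largest difference in each direction averaging 10 TPM or more, up to 3 called members per list and direction, all members of the CREB and GLP-1 receptor lists, 5 genes the study follows (Kdr, Osbpl6, Plat, Bcar1 and Ctrb1), the 6 largest genotype and time differences in each direction, and genes moved oppositely from CON. The comparison, its genes and its lists were chosen with earlier results of these data known. Promoters came from RefSeq (GRCr8), matched by symbol, transcript or synonym, since a genome of the rn6 build was not used here.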

Additional observations from a re-analysis of the deposited data

Results flagged for a closer look

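The effect of the agent differed between genotypes, by the interaction contrast of the limma fit, in the 12 genes with the largest such difference (S983A minus WT, log2). It was more positive in S983A for Pdzrn3 (2.66), Nmu (2.58), Anxa10 (2.32), Tcerg1l (2.01), Nr2f2 (2.00) and Pmp22 (1.93). It was more negative for Ret (−2.98), Mmp15 (−2.33), Mt2A (−2.07), Txnip (−2.05), Epha2 (−1.99) and Misp3 (−1.96). The adjusted p of these contrasts was at most 2.03e-08, that of Mt2A. On the recovered fragments the differences of Mt2A and Nmu were not called, with adjusted p of 0.469 and 0.801 by edgeR's quasi-likelihood test, 0.377 and 0.787 by DESeq2, and 0.497 and 0.843 by DESeq2 with ERCC size factors. Tcerg1l had 22.1 and 20.5 TPM with Ex-4 and 19.2 and 18.9 with FSK in S983A, against 10.8 and 11.7 and 43 and 43.5 in WT, where FSK was the higher. Nr2f2, an orphan nuclear receptor, stayed at or below 0.971 and 0.942 TPM in S983A with either agent and had 15.6 and 14.7 TPM with Ex-4 and 44.2 and 41.8 with FSK in WT. Epha2 was higher with FSK in both genotypes, with 7.42 and 7.03 TPM for Ex-4 and 19.9 and 20.9 for FSK in WT. The genotypes are separate cell lines after single-cell sorting, so the substitution and the line cannot be told apart in these values. With 2 libraries a group, no test for a single library far from the others was run on these values.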

How the results depend on the processing

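No called difference of the 324 named genes changed sign under the alternatives run. For Ex-4 against FSK, centring took 34 of them out of the calls and brought 10 in, ERCC scaling 19 and 3, edgeR 16 and 9, DESeq2 19 and 11, and DESeq2 with ERCC size factors 14 and 6. The counts moved by over 1.5 times under the following. With no fold minimum 5969 genes were higher with Ex-4 and 2320 with FSK, the genotype difference gave 2446 and 1791, and 8 h minus 16 h gave 5022 and 1699. Centring each library on its median gave 1684 and 1588 for Ex-4 against FSK and 1197 and 919 for the time difference. ERCC scaling gave 5473 and 129 for the time difference, and DESeq2 with ERCC size factors 5775 and 143. The genes higher with FSK numbered 1463 by edgeR and 1567 by DESeq2, and the time difference was more negative in 1015 and 1008. Centring, ERCC scaling and the size factors of edgeR and DESeq2 each set the level against which a gene is compared. A pseudocount of 0.1 TPM, other filters on low values and a fit of only the libraries compared kept each count within 1.5 times. Leaving out each library in turn gave 3002 to 3124 genes higher with Ex-4 and 650 to 730 with FSK, 498 to 622 and 297 to 346 for the genotype difference, and 2170 to 2285 and 402 to 504 for the time difference. A group left with 1 library was assumed to vary like the others.

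The replicate numbers did not pair the libraries (correlation of same-numbered deviations 0.081 across genes between Ex-4 and FSK), and a replicate block gave 3057 and 690 genes in the fit of 28 libraries and 3058 and 690 in that of 4. With 2 libraries a group the spread rests on the pooled fit, and changes of genes near 1 TPM are limited by the added pseudocount.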
